A study of Drosophila melanogaster with 18 samples.

Results

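Line sj440 is a mutant line of Drosophila melanogaster from a forward screen that sought genes with a part in shaping muscles, and its candidate lesions are the variants that the authors listed for it from embryo RNA. All distinct entries of its deposited list were taken, with repeated entries of the same position and alleles merged, which gave 68 variants in 55 genes, of 167 distinct variants in 129 genes over the 3 lists analysed. The RNA was polyadenylated RNA of whole embryos from 3 h egg collections at 25 °C, aged for a further 7 h to stage 12. Embryos homozygous for the mutant chromosome, which do not carry the green balancer, were told apart by it under fluorescence and picked by hand. The sj440 list stands for 3 samples with 2 replicate numbers, beside 2 samples of line sj266 and 3 of line sj461, which were collected in the same way. The labels name no mutagen, no parental strain and no further allele for any of these lines, and no unmutagenised control is among them. The authors gave 1 list per line, so the values have no replicate error, and the read depth and share of reads behind each variant are unknown. A muscle phenotype or map position of sj440 was not used here.

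Body wall muscles of the fly embryo form when founder cells fuse with other myoblasts, and the resulting myotubes grow towards tendon cells in the epidermis and attach there. Growth factor receptors guide the mesoderm, surface proteins of the immunoglobulin and cadherin families sort cells and axons, and large spectrin-repeat and titin-like proteins build the contractile cell and place its nuclei. A recessive lesion in any of these steps can disturb the muscle pattern, and a screen line also carries other variants of its chromosome. All listed variants of sj440 lay on chromosome 2, with 33 on arm 2L and 35 on arm 2R. The sj266 and sj461 lists also held only variants of chromosome 2, so this location is a trait of the lists and does not map a lesion. The rule by which entries were kept, by chromosome or by kind of change, is not given. Positions are counted from 1 on build BDGP6. Residue 1 is the first of the annotated protein, and a change is written as the reference residue, its number and the listed residue.

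The strongest entries by the caller's quality score, in which by convention a higher value marks a better supported entry, included 1 premature stop. In NimC4, a receptor with which phagocytes and glia take up dying cells, C103* replaced a cysteine codon by a stop codon at chr2L:14047939-14047939 (quality 228). The gene spans 14047582 to 14048863 on 2L. The codons of the 4 best-scored single-base changes of 2L are shown as the authors annotated them, on the RNA strand from 5′ to 3′, with the changed base in capitals, because they are the coding lesions of highest quality on that arm.

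NimC4 reference codon, C103*: tgT

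NimC4 listed codon: tgA

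ds reference codon, A2539T: Gct

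ds listed codon: Act

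bowl reference codon, P167S: Ccg

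bowl listed codon: Tcg

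Gdi reference codon, R35Q: cGa

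Gdi listed codon: cAa

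The remaining 3 of these lay in genes of unlike function. The gene ds encodes dachsous, a giant cadherin of planar polarity and growth control, and A2539T lay at position 644015 of 2L (quality 228). The gene bowl encodes a zinc finger transcription factor of the odd-skipped family, and P167S lay at 3780224 (quality 228). Gdi, which extracts Rab proteins from membranes in vesicle traffic, had R35Q at 9494512 (quality 225). On the BLOSUM62 scale, on which a negative value marks an exchange that is rare between related proteins, A2539T scored 0, P167S scored -1 and R35Q scored 1.

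On 2R the entries of highest quality were K755N in Lpin, a phosphatidate phosphatase of fat storage (8139721), and K793M in CG30015 (10841914), both with a quality of 228. They were followed by A639V in Sox14, a transcription factor of the ecdysone response (23984925, quality 181), and D842E in sha, which shapes the actin-rich hairs and denticles of the epidermis (11333622, quality 179). An insertion in Np (8996477), described below, had a quality of 173, and S180P in Su(z)2, a Polycomb group gene (13000265), had 167. The BLOSUM62 scores of the substitutions were 0 for Lpin, -1 for CG30015, 0 for Sox14, 2 for sha and -1 for Su(z)2. A quality of 150 or more was reached by 11 variants, which were spread over 13.4 Mb of 2L (5 variants) and 15.9 Mb of 2R (6 variants), so the best-scored entries did not fall into one region.

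**Figure D1:**
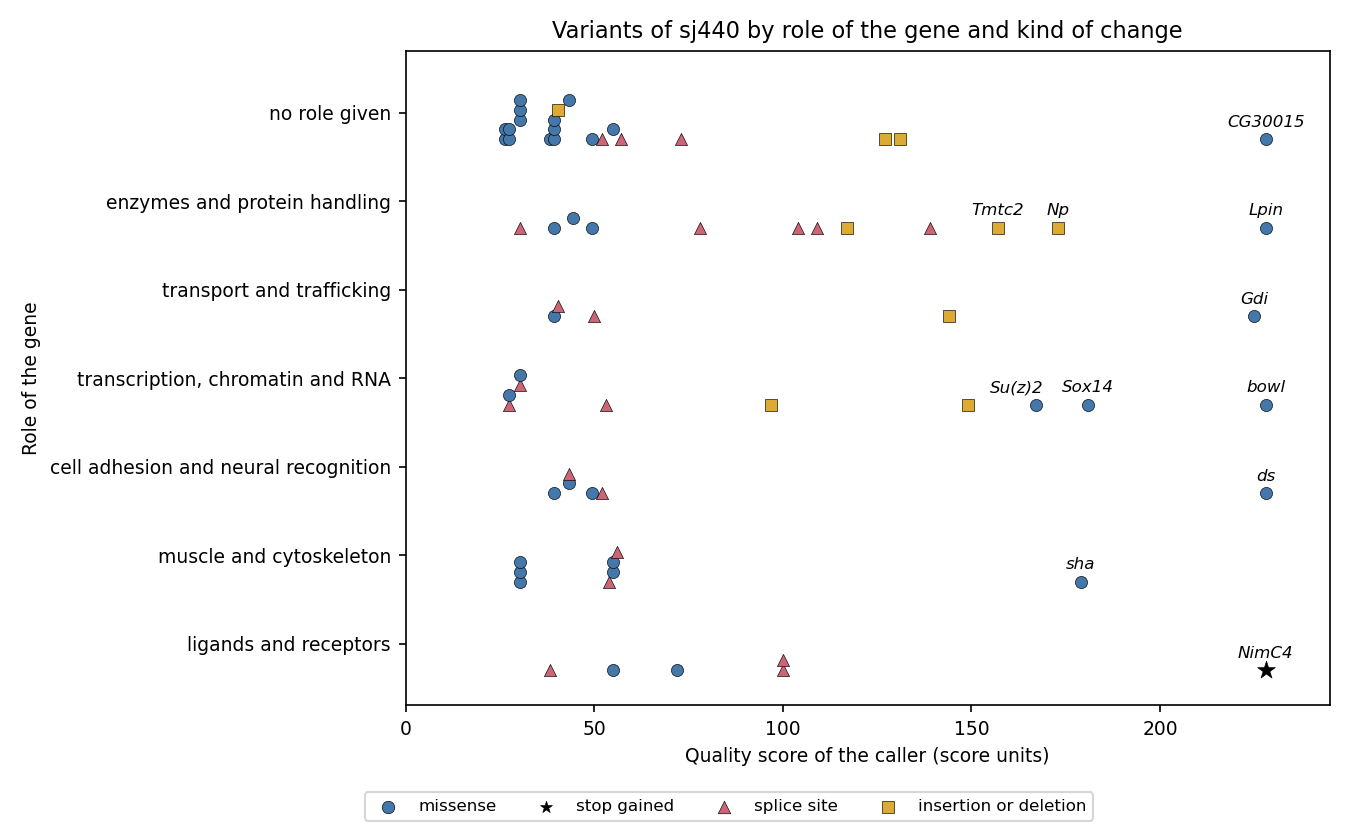
Quality score of each of the 68 variants of sj440 (x axis, score units) by the role of its gene (y axis), with the kind of change as colour and shape and genes named from a quality of 150. Variants of 150 or more stand in every role group, and most other points lie below 100.

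Quality was 100 or more for 21 variants in 17 genes, 50 to under 100 for 15 and under 50 for 32, with a median of 52 and a range of 26.4 to 228. The 32 variants under 50 took only 9 different values, and 9 of them shared the value 30.4. Over the whole list 44 of 68 variants had a quality that another variant also had, so quality gives few ranks in its lower part. Missense changes were 38 of the variants (median quality 41.4), splice-site changes 20 (53.5) and insertions or deletions 9 (131). As no source used here names the caller, these kinds of change may not share one scale.

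Ligands and receptors of cell signalling held 6 variants in 5 genes, and a ligand and its receptor were both among them. Pvr, the receptor tyrosine kinase that guides haemocytes and border cells, had both bases of a splice donor changed at 8222890 and 8222891 of 2L (quality 100 each). On the RNA strand these were a G-to-A change at the first and a T-to-G change at the second intron base. Pvf2, which encodes a growth factor that binds Pvr, had a T-to-C change at the second base of a donor at 7070419 of 2L (quality 38.4). N264S in pyr, an FGF that acts on the migrating mesoderm, had a quality of 72 and was listed identically in sj266 (quality 63). Tehao, a receptor of the Toll family, had D521E (quality 55). With C103* in NimC4 this group had a stop, 3 splice-site variants and 2 missense changes. Whether the bases changed in Pvr lie on one molecule was not tested, and no effect on splicing was measured.

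Genes of muscle and the cytoskeleton held 8 variants in 5 genes, of which sha alone exceeded a quality of 56. Msp300, a giant nesprin that positions nuclei in muscle, had E94D and H95N at the adjacent bases 5109427 and 5109428 of 2L (quality 55 each) and T3021S at 5166402 (quality 30.4). The codons of the first pair go from gaG to gaT and from Cac to Aac. Obsc, the obscurin of the sarcomere's M-band, listed as Unc-89, had A531V and S568P, 110 bp apart on 2R (quality 30.4 each). The BLOSUM62 scores of these 5 changes were 2, 1, 1, 0 and -1 in the order given, so 1 of them was negative. A donor of cmet, a kinesin that carries chromosomes in mitosis, had a T-to-A change at its second base (quality 56). An acceptor of hts, the adducin that caps actin filaments on spectrin, had an A-to-T change at the second-to-last intron base (quality 54).

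Of a list of 68 genes known from muscle development, 40 lie on chromosome 2, and 4 of these were in the sj440 list (10%): Msp300, Obsc, Pvr and pyr. Of all 5508 protein-coding genes of the chromosome 55 were in the sj440 list (0.999%). The muscle genes are longer, with a median gene length of 18.5 kb against 2.04 kb, and were chosen with these results known. Variants read from RNA can be listed only in genes with reads, and expression of the genes was not compared. The shares are therefore given without a test, and the part of length or expression in them was not tested. Of the muscle list, sj266 held 2 genes (Col4a1 and, with the same variant as sj440, pyr) and sj461 held 4 (Msp300, ptc, robo2 and shot). Their 8 variants in sj440 reached a quality of at most 100, and 3 of the 8 had 30.4. The highest scores of the line therefore stood outside this list.

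Genes of cell adhesion and neural recognition were 6, with 1 variant each. Besides ds, they encode immunoglobulin-domain proteins with which neurons and other cells recognise each other. Dscam1, whose alternative exons give very many receptor isoforms, had a G-to-A change at the last base before an exon (acceptor, 7329690 of 2R, quality 52). The family of beat genes, which acts in motor axon guidance, was represented by A325G in beat-Ib (49.4) and a G-to-A change at the first base of a donor in beat-IIIc (17260349 of 2L, 43.4). DIP-kappa and dpr1 belong to families of partners that bind each other across synapses, and they had H592Y (43.4) and V346A (39.4). The 5 immunoglobulin genes thus lay between 39.4 and 52, and ds stood apart at 228.

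Transcription, chromatin and RNA genes were 10, again with 1 variant each, and 4 reached a quality of 100. These were bowl, Sox14, Su(z)2 and Mnn1, the fly menin, which lost 2 residues. Su(z)2 and Psc, related subunits of Polycomb repressive complexes, are separated by 1 coding gene on 2R, and their variants lay 22.4 kb apart. A96T in Psc (12977878) had a quality of 30.4 against 167 for S180P in Su(z)2. An insertion in mam, a coactivator of Notch, added 2 glutamines at residues 394 to 395 (quality 97). The RNA-binding gene fus had a G-to-A change at the last intron base of an acceptor (53). HmgZ, an HMG-box chromatin protein, had a G-to-C change at the first base of a donor (30.4), and Nipped-B, which loads cohesin, had a G-to-T change at an acceptor (4726789, quality 27.4). D444E in ord, which holds sister chromatids together in meiosis, also had 27.4.

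Enzymes and proteins that handle other proteins were 10 genes with 12 variants, 7 of them at a quality of 100 or more. Aldh-III, an aldehyde dehydrogenase, had a G-to-T change at the last intron base of an acceptor (7473347 of 2R, quality 139), the splice-site variant of highest quality in the line. ClpP, the mitochondrial protease listed as CG5045, had a G-to-A change at the same place of its acceptor (10357491 of 2L, quality 109). Lpin had, besides K755N, a T-to-C change at the second base of a donor (quality 104), 2168 bp away. In jhamt, the methyltransferase that completes juvenile hormone, a G-to-A change hit the first base of a donor (16366571 of 2L, quality 78). An insertion in Np, a membrane-bound serine protease, added a threonine (quality 173). Lower entries were S27L in gNacalpha, listed as CG4415 (49.4), S11A in Amy-d, a digestive amylase (44.4), S151G in the protease gene CG10764 (39.4) and a donor change in Tmem131, listed as CG8370 (30.4). Amy-d has a close copy in the genome, and how reads were divided between such copies is not given.

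Transport and trafficking genes were 5 with 1 variant each. Gdi (225) and E23, an ABC transporter of the ecdysone response (144), stood above the others. The sugar transporter gene sut1 had an A-to-T change at the second-to-last intron base of an acceptor (50), the sodium/proton exchanger Nhe2 a G-to-T change at the first base of a donor (40.4) and the sodium channel gene ppk12 had T9P (39.4).

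For 14 genes no role is given here, and they held 21 variants with a median quality of 39.4, against 52 over the list. Above 100 were K793M in CG30015 and the insertion in CG44085. Splice-site changes lay in CG7239 (donor, 73), CG15111 (donor, 57) and CG4972 (acceptor, 52). CG8854 had S303T (55) and an insertion at residue 81 (40.4), 1123 bp apart. The others were F84Y in CG15082 (43.4), L77H in witty, listed as CG14274, P491L in CG9525 and P1034Q in CG6280 (30.4 each), and the groups of nearby changes in Trf5, CG30485, CG13324 and CG31897 given below.

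Changes in the length of a protein were 8 insertions and 1 deletion, all in frame. The alleles of the 4 genes on 2L are shown on the RNA strand, 5′ to 3′, with the altered bases in capitals as the authors annotated them, because the added bases repeat their neighbours in CG4341 and CG44085. The intervals are chr2L:952947-952951 for CG4341, chr2L:3352610-3352611 for E23, chr2L:7061148-7061155 for Mnn1 and chr2L:13272516-13272518 for CG44085.

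CG4341 (Tmtc2) reference: agCAGC

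CG4341 (Tmtc2) listed: agCAGCAGC

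E23 reference: aCg

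E23 listed: aCGTCGTCg

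Mnn1 reference: AGCAATAac

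Mnn1 listed: Aac

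CG44085 reference: caACca

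CG44085 listed: caACAACca

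In Tmtc2, of a family known in mammals to add mannose to cadherins, a serine was added to adjoining serines (residues 475 to 476, quality 117, and 157 for an equivalent entry 4 bp away). In CG44085 a glutamine was added after a glutamine (residues 401 to 402, quality 131, and 127 for an equivalent entry 1 bp away). E23 gained 2 serines after threonine 261 (quality 144), and Mnn1 lost a serine and an asparagine at residues 574 to 576 (quality 149). With equivalent entries counted once, 7 insertions or deletions and 66 variants remained.

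The 38 missense changes ranged from -3 to 3 on the BLOSUM62 scale, with a median of 0. The score was negative for 14, 0 for 10 and positive for 14. Exchanges scored -3 were L17P in Trf5, K321I in CG30485, L77H in witty and P491L in CG9525, none with a quality over 39.4. A proline was gained in 6 changes. A charged residue was lost, gained or exchanged for one of opposite charge in 5. In sj266 and sj461, 2 of 13 and 16 of 44 missense changes had a negative score, with medians of 1 and 0. The 48 coding variants lay between residue 9, in ppk12, and residue 3021, in Msp300, with a median of 323. Residue numbers of 100 or less were found for 14 of them and over 1000 for 3 (ds, Msp300 and CG6280). Protein lengths were not used here, so a position relative to the end of the protein is not given.

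The 20 splice-site variants lay in 19 genes, 12 at donors and 8 at acceptors. At donors 7 changed the first intron base and 5 the second, and at acceptors 6 changed the last intron base and 2 the base before it. Spliced messenger RNA lacks these bases, and which reads carried them is not in the list. A quality of 100 or more was reached by 5 of the 20, in Aldh-III, ClpP, Lpin and Pvr (both bases).

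Listed genes were spaced over both arms. On 2L the 26 genes ran from ds (644015) to Nhe2 (21121048) with a median gap of 0.534 Mb between neighbours, and on 2R the 29 genes ran from Nipped-B (4726789) to Obsc (24009885) with a median gap of 0.556 Mb. The longest gaps were 3.86 Mb, between beat-IIIc and Nhe2, and 2.60 Mb, between Nipped-B and Dscam1. The 1 Mb window with most variants began at Psc on 2R and held 8 variants in 5 genes (Psc, Su(z)2, CG13324, CG6280 and CG30485). On 2L such a window began at Pvr and held 6 variants in 4 genes (Pvr, witty, CG31897 and CG9525). The closest pair of different genes was Mnn1 and Pvf2, with variants 9.27 kb apart, followed by Psc with Su(z)2 and by Sox14 with Obsc (24.9 kb).

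Within genes, 17 variants in 8 genes lay within 100 bp of another variant. Single-base changes at adjacent bases formed 4 pairs, in Msp300, Pvr, CG13324 and CG31897, and both members of each pair had the same quality. CG31897 had M779I and G780S (26.4 each). CG13324 had N57T and N57D in the same codon (27.4 each), which read together would give an alanine at residue 57. CG30485 had Q303P, S305P and K321I within 54 bp, all with a quality of 39.4. Trf5, listed as CG15398, had T25M (49.4) and L17P (38.4), 24 bp apart. The other groups of close entries were those of Tmtc2 and CG44085, which repeat an insertion.

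**Figure D2:**
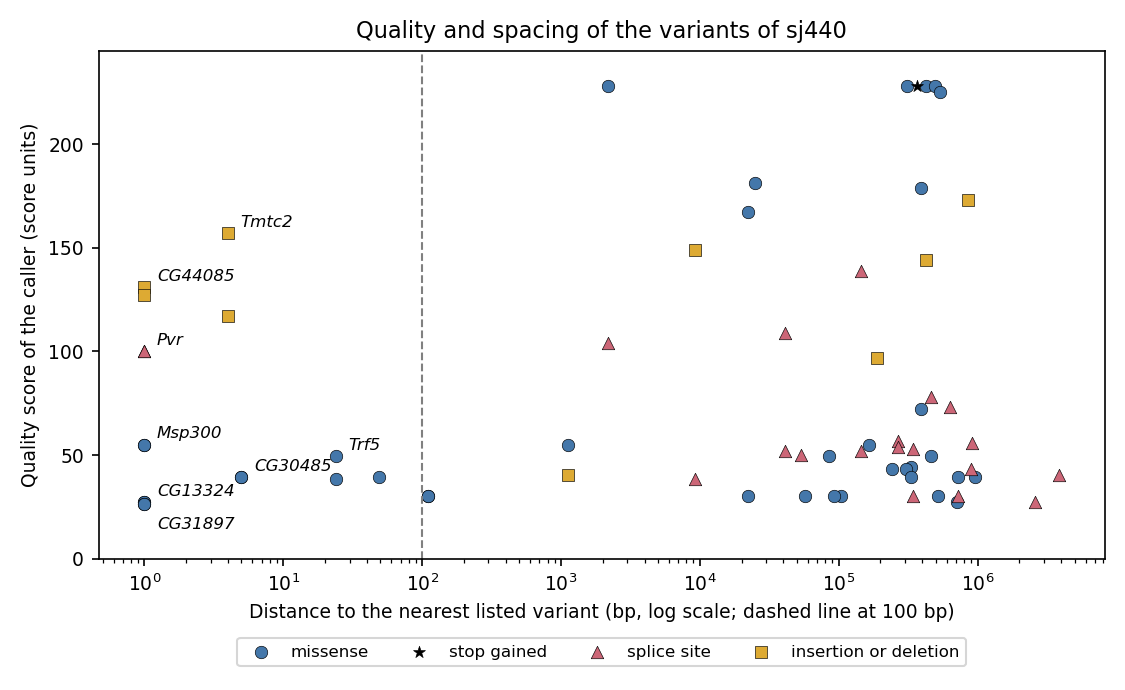
Quality score (y axis, score units) against the distance to the nearest listed variant of sj440 (x axis, bp, log scale), one point per variant, with the kind of change as colour and shape; points of equal value overlap. The 17 variants left of the dashed line at 100 bp belong to the 8 genes named, and none of them exceeds 157.

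The share of variants within 100 bp of another was 25% in sj440 (17 of 68, exact 95% interval 15.3 to 37.0), 10.5% in sj266 (4 of 38, 2.94 to 24.8) and 29.9% in sj461 (20 of 67, 19.3 to 42.3). Neither difference passed a two-sided Fisher's exact test adjusted over 4 tests (adjusted p = 0.327 against sj266 and 1 against sj461). Within sj440 a quality of 100 or more was found for 15 of 51 isolated variants (29.4%) and 6 of 17 close ones (35.3%), which did not pass the same exact test (adjusted p = 1). That order turned with the insertions of Tmtc2 and CG44085 counted once, to 32.1% of 53 against 15.4% of 13 (Fisher's exact test, adjusted p = 0.635). The close entries then left at 100 or more were the pair in Pvr, whose quality was the limit of 100 itself. The 17 close variants of sj440 lay in 8 genes, and each counts as close only because a partner is listed. Variants of one gene are thus not independent. The intervals and p-values treat every variant as 1 independent draw, so they can understate even the counting error. With 1 list per line they do not measure a difference between lines. The alternative of 1 variant per gene was not run for the spacing shares.

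The change from G:C to A:T, the main product of alkylating mutagens, made up 18 of the 59 single-base changes, ahead of A:T to T:A (12), A:T to G:C (11), G:C to T:A (9), A:T to C:G (6) and G:C to C:G (3). They made up 14 of 46 isolated changes (30.4%, exact 95% interval 17.7 to 45.8) and 4 of 13 close ones (30.8%, 9.09 to 61.4), and the shares did not pass Fisher's exact test (adjusted p = 1). Of the 12 A:T to T:A changes 11 were isolated, among them C103* in NimC4, K755N in Lpin, K793M in CG30015 and D842E in sha. Among 14 single-base changes with a quality of 100 or more, 6 were of G:C to A:T (ds, bowl, Gdi, Sox14, ClpP and a base of Pvr) and 4 of A:T to T:A. No mutagen is named for the line, and the origin of these changes was not tested.

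**Figure D3:**
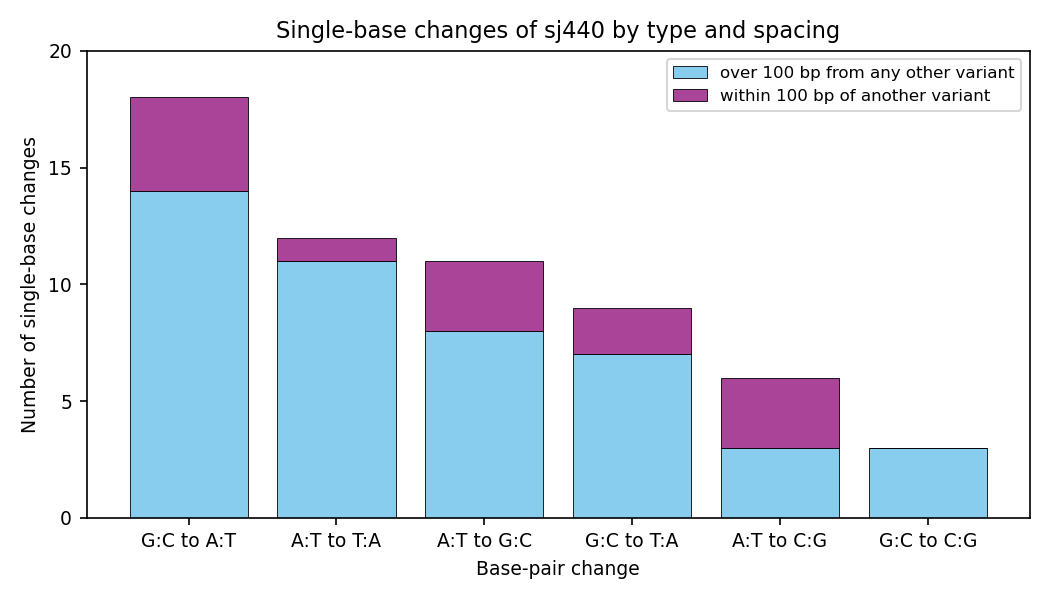
Number of single-base changes of sj440 (y axis) for each of 6 base-pair changes (x axis), split into changes over 100 bp from any other variant and changes within 100 bp of one. G:C to A:T is the highest bar with 18, and A:T to T:A follows with 12, of which 1 is close to another variant.

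Of the 68 variants 6 were listed identically in sj266 and 0 in sj461. They were the missense changes of pyr, CG10764 and ord, the donor changes of Lpin and HmgZ and the insertion of Tmtc2 at 952951 of 2L. Quality was higher in sj440 than in sj266 for 4 of them, at 157 against 89 in Tmtc2, 104 against 65 in Lpin, 72 against 63 in pyr and 39.4 against 38.4 in CG10764. It was lower in HmgZ, with 30.4 against 82, and equal in ord, with 27.4. The sj440 list covers 3 samples and the sj266 list 2, and the depth of both is unknown. The part of sample number or depth in these scores was not tested. K755N in Lpin, K793M in CG30015 and all other variants with a quality of 167 or more were listed in sj440 only. Among the 3 lists the sj266 and sj440 lists come from one workbook, which cannot be told apart from a shared origin of the flies.

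**Figure D4:**
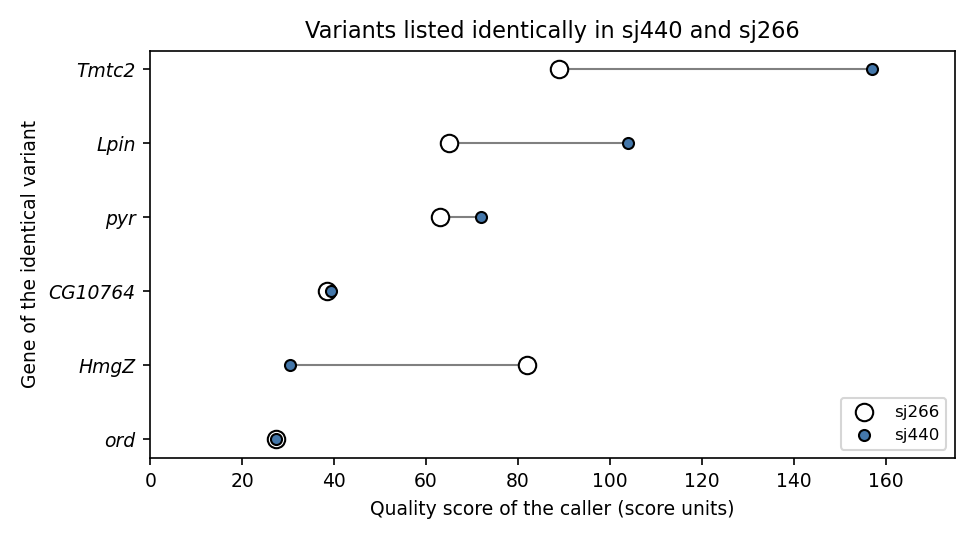
Quality score (x axis, score units) in sj440 (filled) and sj266 (open) of the 6 variants listed identically in both lines, by gene (y axis). The score is higher in sj440 for 4 genes, lower for HmgZ and equal for ord.

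In 7 further genes sj440 and another line had different variants. With sj461 these were ds (A2539T against G118R, quality 228 and 140, 63400 bp apart), DIP-kappa (H592Y against N420H), CG15082 (F84Y against K245Q), Np (insertions at residues 537 to 538 and from 733) and Msp300 (K8249I in sj461). With sj266 they were CG31897 (M79I and D991N in sj266) and CG44085 (insertion at residue 623 in sj266). The changes in ds thus lay far apart in the same large cadherin, and both were of G:C to A:T.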

How the data were processed

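Polyadenylated RNA of whole embryos was sequenced, and the variant list of line sj440 was analysed beside those of sj266 and sj461. Lines sj154, sj287 and sj340 were not analysed here. The tools cutadapt 2.4 and STAR 2.5.4b and the build BDGP6 stand in the submitters' processing notes without a stated role. The sources used here do not name the program that found, filtered or annotated the variants. The quality score of each variant was taken as the authors deposited it, with 1 list per line over all its samples. Each list was assigned by its worksheet's name.

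The 82 entries of the sj440 list were merged to 68 variants. All 55 genes matched RefSeq's gene table (assembly Release 6 plus ISO1 MT), 7 under a newer symbol, and each of the 68 positions fell within its gene there. Shares have exact (Clopper-Pearson) 95% intervals and were compared by Fisher's exact test, two-sided, with Benjamini-Hochberg adjustment over 4 tests (threshold 0.05), after a check on simulated data. Close variants are those within 100 bp. Splice bases were read from the reference base on the RNA strand, assuming GT and AG introns. Protein sequences were not used, so the planned comparison of residues with RefSeq was not made.

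Every gene of the list was named, and the members, role groups, muscle gene list and tests were chosen with earlier results of these data known. Alternatives were other distances, a quality minimum or limit of 50, single-base changes only, 1 variant per gene, and the removal of splice-site, shared or equivalent entries. The 1 variant kept per gene was that of highest quality. The scripts ran under Python 3.11.15 with scipy 1.17.1 for tests, Biopython 1.88 for BLOSUM62, pandas 2.3.3 and numpy 2.4.6 for tables and matplotlib 3.10.9 for figures.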

Additional observations from a re-analysis of the deposited data

How the results depend on the processing

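With a quality of 50 or more the sj440 list held 36 variants in 31 genes in place of 68 in 55. None of the 4 comparisons passed the threshold as reported. Over their 26 alternatives none passed it either, 18 kept the direction and 8 turned it. The 18 include the share of G:C to A:T with equivalent insertions counted once, which uses single-base changes only and could not change. Also among them is the share with a quality of 100 or more at 1 variant per gene. There the variant was picked by its quality, the value compared, so it is no independent check. The share of close variants, sj440 minus sj461, was -4.85 percentage points as reported and 10.1 with a distance of 20 bp. The share of G:C to A:T, isolated minus close, was -0.334 points as reported, and 4.87 without splice-site variants, 8.33 at a quality of 50 or more, 0.612 with a distance of 20 bp and 3.38 without variants identical to sj266. The share with a quality of 100 or more, isolated minus close, was -5.88 points, and 16.7 with equivalent insertions counted once, 9.70 without splice-site variants and 7.84 with a limit of 50. The cause of these turns was not tested, except that counting equivalent insertions once moves Tmtc2 and CG44085 from close to isolated. No paired analysis was possible because each line has 1 list over all its replicates, and for the same reason no replicate could be left out. Depth behind each variant is unknown.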
